A study of Caenorhabditis elegans with 8 samples.

Results

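The long intergenic RNA genes of Caenorhabditis elegans carry names that start with linc- followed by a number, and 170 of the 46748 genes in the count table bear such a name. All 170 matched the Ensembl annotation of genome build WBcel235, which gives 169 of them the biotype lincRNA and 1, linc-171, the biotype ncRNA. Reads were counted for 137 linc genes in at least 1 library, and 33 linc genes had none. The libraries were made from total RNA of neurons sorted by fluorescence from strain OH10689. Its transgene otIs355, on chromosome IV, holds rab-3(prom1)::2xNLS-TagRFP, in which a rab-3 promoter drives a nuclear red fluorescent protein. The worms were untreated and their age is not given. There were 4 RNA samples, split so that one portion went into the SoLo Ovation kit of Tecan Genomics and the other into the SMARTseq V4 kit of Takara with Nextera XT, which makes 4 SoLo and 4 SMARTseq libraries. Strain, genotype, sort and RNA were shared by both kits. No label tells whether separate cultures or sorts stood behind the 4 RNA samples, so p-values measure only the spread between these samples, which may be technical.

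Long intergenic non-coding RNAs are transcribed from stretches of the genome between protein-coding genes, are often spliced and polyadenylated, and have no long open reading frame. They are usually present at lower levels than messenger RNAs, and most of the worm linc genes have no assigned function. A library kit that starts cDNA from the poly(A) tail, as SMARTseq V4 does, reads polyadenylated transcripts, whereas a total RNA kit with removal of ribosomal RNA, such as SoLo Ovation, does not need the tail.

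The libraries held 2985097, 2354681, 3454199 and 2419523 counted reads for SoLo 1 to 4, against 7099497, 5342316, 6723049 and 4510927 for SMARTseq 1 to 4. The 2 libraries of RNA sample 1 stood apart from the others of their kit. The mean chi-square per gene between SoLo 1 and the other SoLo libraries was 25.1 to 27.7, against 2.14 to 3.10 among SoLo 2 to 4, and that between SMARTseq 1 and the other SMARTseq libraries was 75.7 to 85.8, against 8.76 to 10.7 among SMARTseq 2 to 4. All 16 pan-neuronal markers had reads in all 8 libraries, with a summed level of 16849 to 23319 CPM, read counts scaled to a common library size, in SoLo and 20572 to 28599 CPM in SMARTseq. RNA sample 1 had the highest pan-neuronal sum, the highest intestine sum and the lowest sum of 6 hypodermis and cuticle genes in each kit, 67.1 CPM in SoLo 1 against 159 to 198 CPM in SoLo 2 to 4, and 249 CPM in SMARTseq 1 against 1436 to 2018 CPM in SMARTseq 2 to 4. The muscle and germline sums were also lowest, and the coelomocyte sum highest, in RNA sample 1 in each kit. Germline was 186 CPM in SoLo 1 against 230 to 287 in SoLo 2 to 4, and 175 CPM in SMARTseq 1 against 236 to 345 in SMARTseq 2 to 4. Muscle was 5768 CPM in SoLo 1 against 6677 to 7328, and 4033 CPM in SMARTseq 1 against 4072 to 5542. No marker of muscle, intestine, hypodermis, germline, sperm, glia or coelomocytes was at 0 in all 8 libraries. The summed level of the 7 intestine markers was 282 to 463 CPM in SoLo and 115 to 171 CPM in SMARTseq, highest in SoLo 1 and SMARTseq 1. The sum of the 4 sperm markers was 15.7 to 25.9 CPM in SoLo and 108 to 296 CPM in SMARTseq. In bulk samples fewer cells of a type and less RNA per cell cannot be told apart, and the part of these markers in the linc values was not tested.

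The linc genes lie on all 6 chromosomes, with 22 on I, 34 on II, 22 on III, 26 on IV, 33 on V and 33 on X. Their exonic length has a median of 456.5 bases and runs from 101 to 4183 bases. A single exon makes up 54 of the genes. Despite the name, 60 of the 170 share exon bases with another annotated gene, 39 lie in or across the span of a protein-coding gene, and 19 have over 50% of their exon bases under other genes. Whether the authors counted by strand is not given in the sources used here, so reads of an overlapping pair on opposite strands cannot be told apart. Beside those noted at their values, the reads of linc-2, with 65.4% of its exon bases under pcf-11 on the same strand, linc-124, with 45.2% under ZC334.12, linc-40, with 26.2% under Y82E9BL.18, linc-133, with 26.1% under opposite-strand genes, linc-43, with 23.4% under F09A5.3, and linc-6, with 23.0% under F52D2.14, are uncertain. Of the other genes named, linc-171 has 12.6% of its exon bases under another gene, and linc-8, linc-24, linc-57, linc-82 and linc-147 have between 1.23% and 4.64%.

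As a class, the linc genes took 0.0589% ± 0.0133 of all counts in SoLo and 0.0968% ± 0.0110 in SMARTseq (SD, n = 4 each), a SoLo over SMARTseq ratio of 0.608. By library the share was 0.0781%, 0.0480%, 0.0529% and 0.0566% in SoLo 1 to 4, against 0.110%, 0.0887%, 0.0871% and 0.101% in SMARTseq 1 to 4. Every SoLo library lay below every SMARTseq library, and RNA sample 1 gave the highest share in both kits. The single gene linc-7 held 0.00542% ± 0.000893 of all counts in SoLo and 0.0333% ± 0.00536 in SMARTseq. Without linc-7 the class held 0.0535% ± 0.0129 in SoLo, with a range of 0.0437% to 0.0723%, and 0.0635% ± 0.0105 in SMARTseq, with a range of 0.0565% to 0.0790%. These ranges overlapped, and the ratio was then 0.842. SoLo was nonetheless below SMARTseq in each RNA sample, at 0.0723%, 0.0437%, 0.0466% and 0.0514% in SoLo 1 to 4. The SMARTseq partners were at 0.0790%, 0.0565%, 0.0584% and 0.0600% in SMARTseq 1 to 4.

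**Figure D1:**
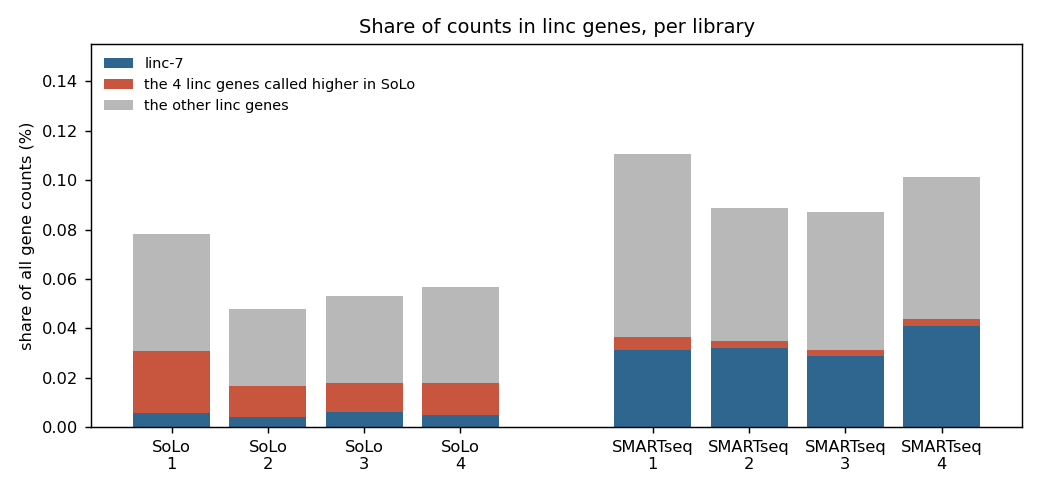
Share of all counted reads, in percent, taken by the linc genes in each of the 8 libraries, with linc-7, the 4 genes higher in SoLo (linc-9, linc-22, linc-56 and linc-128) and the other linc genes as parts of each bar. SoLo libraries reach 0.0480% to 0.0781% and SMARTseq libraries 0.0871% to 0.110%, and linc-7 is 0.00542% on average in SoLo and 0.0333% in SMARTseq.

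The make-up of the class differed between kits. Of all linc reads, linc-7 held 9.41% ± 1.91 in SoLo and 34.6% ± 5.14 in SMARTseq, and linc-22 held 9.76% ± 1.34 in SoLo and 2.11% ± 0.663 in SMARTseq (SD, n = 4 each). The share of linc-11 was close in both, at 11.7% ± 1.65 in SoLo and 10.6% ± 1.10 in SMARTseq. The top 3 genes in SoLo, linc-11, linc-128 and linc-22, made up 31.2% of linc reads there. In SMARTseq the top 3, linc-7, linc-11 and linc-8, made up 51.8%.

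With each library thinned to 2354681 reads, fewer linc genes reached 5 reads in SoLo than in SMARTseq. The numbers were 47, 35, 37 and 38 of 170 in SoLo 1 to 4, against 55, 43, 46 and 47 in SMARTseq 1 to 4. SoLo gave 39.25 ± 5.32 and SMARTseq 47.75 ± 5.12 genes (SD, n = 4 each). In every RNA sample the SoLo library detected 8 or 9 fewer genes than its SMARTseq partner, although the ranges of the kits overlapped, with RNA sample 1 highest in each. Without thinning the means were 42.75 ± 7.37 in SoLo and 69 ± 7.79 in SMARTseq. At the matched depth 26 linc genes were detected in all 4 SoLo libraries, 30 in all 4 SMARTseq libraries, 20 in all 8 and 94 in none. No gene was detected in all 4 SoLo libraries and no SMARTseq library, whereas linc-19, linc-38, linc-82, linc-105 and linc-167 were detected in all 4 SMARTseq libraries and no SoLo library. Among SoLo libraries 8 linc genes were detected in library 1 alone, and among SMARTseq libraries 7 were, with linc-29, linc-115 and linc-118 in both sets. Detection over all genes at this depth is not given here. Whether the difference in detection is particular to the linc genes was not tested.

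A level of 2.51 CPM in at least 4 libraries was needed for a gene to be tested between kits, and 42 of the 170 linc genes passed, holding 92.2% of linc reads. For this cutoff alone, CPM was taken on plain library totals, so it can differ from the CPM values printed elsewhere. The other 128 comprised the 33 genes without reads and 95 genes with 1 to 121 reads over all 8 libraries, with 580 reads in SoLo and 1746 in SMARTseq. Of those 95, 11 had reads in SoLo alone and 18 in SMARTseq alone. By chromosome the tested genes numbered 9 of 22 on I, 9 of 34 on II, 11 of 22 on III, 1 of 26 on IV, 7 of 33 on V and 5 of 33 on X. Their median exonic length was 751.5 bases.

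Of the 42 tested linc genes, 4 were higher and 24 lower in SoLo than in SMARTseq at an adjusted p under 0.05 in edgeR's quasi-likelihood test, and 14 passed in neither direction. The 4 are 9.52% of the linc genes, where 20.0% of all 11378 tested genes were higher in SoLo, and the 24 are 57.1%, where 27.6% of all tested genes were lower in SoLo. The log2 fold change, SoLo over SMARTseq, had a median of -1.29 with quartiles of -2.45 and 0.07 over the 42 linc genes, and 31 of the 42 were negative. Over all tested genes the median was 0.01, with quartiles of -1.29 and 0.70. Without both libraries of RNA sample 1 the calls were 5 higher and 24 lower in SoLo, where 26.2% of all genes tested in that fit were higher and 32.2% lower, and the linc median was -1.43. With library totals as the only scaling, which moved the median of all tested genes to 0.56, 7 linc genes were higher and 18 lower in SoLo, where 4318 of the 11378 tested genes were higher and 2388 lower.

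**Figure D2:**
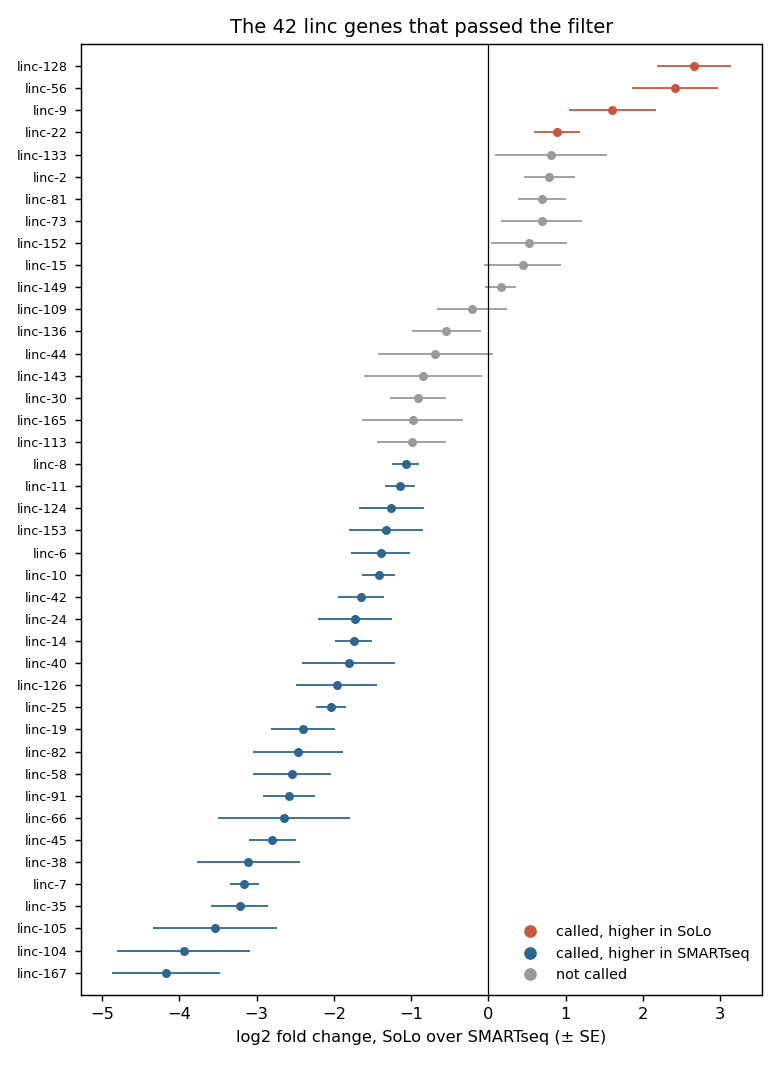
Log2 fold change, SoLo over SMARTseq, of each of the 42 tested linc genes with its standard error, ordered by size and coloured by the call at an adjusted p under 0.05. The values run from -4.18 for linc-167 to 2.67 for linc-128, and 31 of the 42 are below 0.

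Passing the filter was itself tied to direction. Through the SMARTseq libraries alone 15 linc genes passed, of which 13 were lower in SoLo, and through the SoLo libraries alone 6 passed, of which 2 were higher in SoLo. Through a kit alone means that all 4 libraries of that kit were over the cutoff and not all 4 of the other. Some of these genes were over it in up to 3 libraries of the other kit. The 17 linc genes over the cutoff in all 8 libraries comprised 2 that were higher in SoLo, 10 that were lower and 5 that passed in neither direction, with a median log2 fold change of -1.14. Among the 7614 genes of the whole table over the cutoff in all 8 libraries, 19.5% were higher and 28.6% lower in SoLo, with a median of -0.01. The 28 tested linc genes that share no exon base with another gene comprised 2 higher and 14 lower in SoLo, with a median of -1.32. In the same fit 20.0% of all tested genes, overlapped or not, were higher and 27.6% lower in SoLo. The CPM of all 4 SoLo libraries lay below that of all 4 SMARTseq libraries for 23 linc genes, beside 25.0% of all tested genes, and above it for 4, linc-2, linc-56, linc-81 and linc-128, beside 21.2% of all tested genes. The kits overlapped for 15.

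The mean CPM of a tested linc gene, which is not scaled by length, had a median of 3.43 in SoLo, with a range of 0.288 to 56.7, and a median of 6.90 in SMARTseq, with a range of 2.03 to 407. The median tested linc gene rested on 11.75 reads per library in SoLo and 33.75 in SMARTseq. The median coefficient of variation of the linc genes was 41.9% in SoLo and 37.3% in SMARTseq, against 23.7% in SoLo and 35.4% in SMARTseq over all tested genes. Without RNA sample 1 it was 26.1% in SoLo and 21.6% in SMARTseq for the linc genes. The value over all tested genes without RNA sample 1 is not given here, so these have no like comparison.

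**Figure D3:**
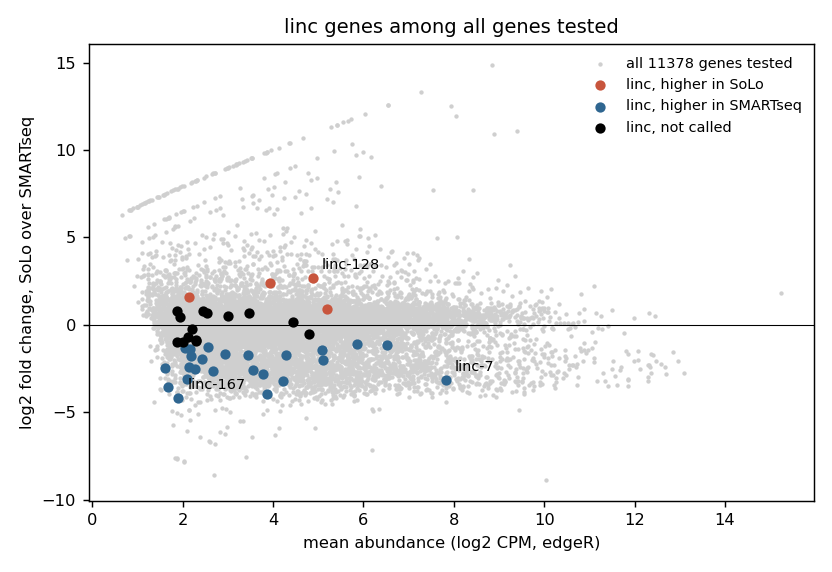
Log2 fold change, SoLo over SMARTseq, against mean log2 CPM, for the 42 tested linc genes over the cloud of all 11378 tested genes. The linc genes sit mostly at low levels and below 0, with a median of -1.29 against 0.01 over all genes.

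linc-7 had the highest level of all tested linc genes in SMARTseq, both in CPM and per kilobase of exon. It is a single exon of 1130 bases on the plus strand of chromosome X, from 16002599 to 16003728, inside the span of the protein-coding gene C09G1.4 on the opposite strand but without exon overlap. Its level was 48.2, 36.0, 53.2 and 44.0 CPM in SoLo 1 to 4, against 382, 405, 341 and 499 CPM in SMARTseq 1 to 4. All SoLo libraries lay far below all SMARTseq libraries, and RNA sample 1 did not stand apart. The log2 fold change was -3.16 ± 0.19 (SE; adjusted p = 1.6e-06, edgeR), 8.96-fold higher in SMARTseq.

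Further abundant linc genes were lower in SoLo by smaller folds. linc-11, on the minus strand of chromosome II from 3373169 to 3374185 with 2 exons and 4.33% of its exon bases under piRNA genes on the opposite strand, had 63.7, 52.1, 47.6 and 63.6 CPM in SoLo 1 to 4, against 158, 125, 98.6 and 120 CPM in SMARTseq 1 to 4. No SoLo value reached the lowest SMARTseq value, and the log2 fold change was -1.14 ± 0.19 (adjusted p = 0.000942, edgeR). linc-8, with 5 exons on the minus strand of chromosome II from 2501838 to 2503802, had 39.1, 30.3, 36.0 and 42.3 CPM in SoLo 1 to 4, against 65.0, 77.8, 87.8 and 80.0 CPM in SMARTseq 1 to 4. Its groups did not overlap either, and its log2 fold change was -1.07 ± 0.18 (adjusted p = 0.000849, edgeR). linc-25 and linc-10 had the same direction, but their reads are uncertain. linc-25, on the minus strand of chromosome V from 18725359 to 18725896, has 71.9% of its exon bases under the ncRNA gene Y17D7C.9 on the same strand. It averaged 13.3 ± 2.65 CPM in SoLo and 54.5 ± 4.22 CPM in SMARTseq (SD, n = 4 each), with a log2 fold change of -2.04 ± 0.20 (adjusted p = 2.89e-05, edgeR). linc-10, on the minus strand of chromosome II from 3313083 to 3313507, lies with 100% of its exon bases under the protein-coding gene F39E9.6 on the same strand. It averaged 18.1 ± 4.44 CPM in SoLo and 48.5 ± 1.60 CPM in SMARTseq (SD, n = 4 each), with a log2 fold change of -1.42 ± 0.22 (adjusted p = 0.000501, edgeR).

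linc-136, on the minus strand of chromosome V from 3717700 to 3723734 with 3 exons, differed widely between RNA samples in each kit. It had 36.6, 11.1, 18.8 and 22.7 CPM in SoLo 1 to 4, against 60.8, 19.4, 27.6 and 22.4 CPM in SMARTseq 1 to 4. RNA sample 1 was highest and RNA sample 2 lowest in each kit, and the kits overlapped. Its log2 fold change of -0.54 ± 0.45 did not pass (adjusted p = 0.346, edgeR), and with the RNA sample as a block it did (adjusted p = 0.0425, edgeR). With the block and RNA samples 2 to 4 summed it did not pass (adjusted p = 0.131, edgeR).

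**Figure D4:**
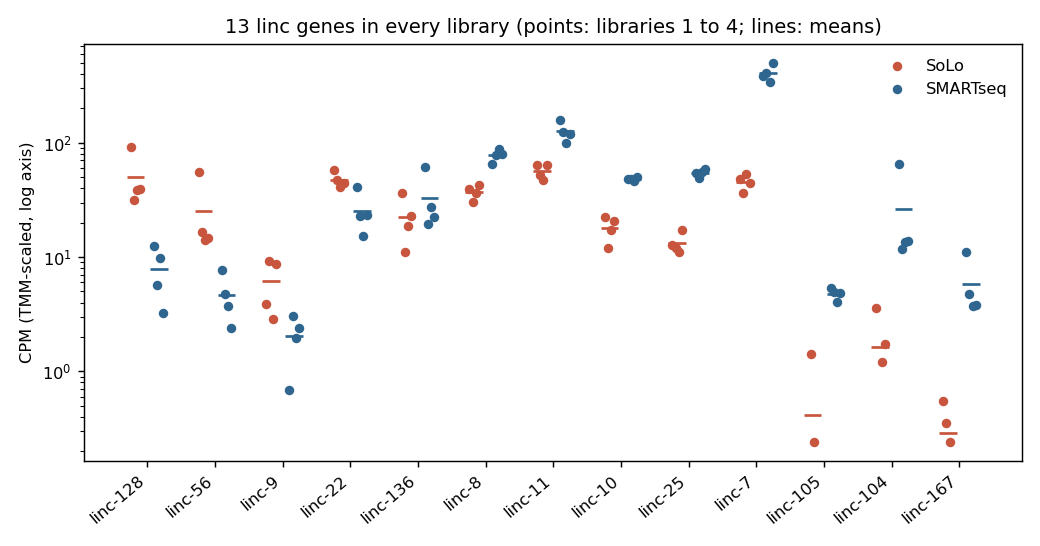
CPM in each library, on a log axis, of the 8 linc genes with the highest mean CPM, the 4 higher in SoLo, and linc-167, linc-104 and linc-105, with SoLo left of SMARTseq, lines for kit means and libraries at 0 not drawn. linc-7 lies at 36.0 to 53.2 CPM in SoLo and 341 to 499 CPM in SMARTseq, while linc-128 and linc-56 lie higher in SoLo.

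Per kilobase of exon, the order of the abundant linc genes differed between kits. In SoLo linc-10 led with 77.9 ± 19.1 CPM per kb, followed by linc-11 with 58.5 ± 8.45, linc-2 with 49.9 ± 13.4, linc-25 with 45.5 ± 9.07, linc-8 with 42.0 ± 5.80 and linc-7 with 40.1 ± 6.42 CPM per kb (SD, n = 4). Each of these neighbours differed from the next by less than their SDs added. In SMARTseq linc-7 led with 360 ± 59.2 CPM per kb, followed by linc-10 with 209 ± 6.88, linc-25 with 187 ± 14.5, linc-35 with 171 ± 48.1 and linc-11 with 129 ± 25.6 CPM per kb (SD, n = 4). There the step from linc-7 to linc-10 and the step from linc-10 to linc-25 were larger than the SDs added, and the others were not.

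The 4 linc genes higher in SoLo were linc-128, linc-56, linc-9 and linc-22. Of these, linc-56 and linc-9 passed the filter through the SoLo libraries alone, the kit where they were higher. linc-56 was also over the cutoff in 3 SMARTseq libraries, and linc-9 in none. Together the 4 genes took 0.0155% ± 0.00651 of counts in SoLo and 0.00328% ± 0.00120 in SMARTseq (SD, n = 4 each). linc-128, a single exon of 2302 bases on the plus strand of chromosome V from 1150906 to 1153207, had 92.0, 31.7, 38.7 and 39.1 CPM in SoLo 1 to 4, against 12.5, 5.67, 9.89 and 3.23 CPM in SMARTseq 1 to 4. Every SoLo library was above every SMARTseq library, and RNA sample 1 was highest in both kits. Its log2 fold change was 2.67 ± 0.48 (adjusted p = 0.00144, edgeR). linc-56, a single exon of 755 bases on the plus strand of chromosome X from 2822754 to 2823508 with 1.06% of its bases under ssr-2 on the opposite strand, had 55.2, 16.4, 14.0 and 14.7 CPM in SoLo 1 to 4, against 7.70, 4.73, 3.71 and 2.42 CPM in SMARTseq 1 to 4. The groups did not overlap, and SoLo 1 was far above SoLo 2 to 4. The log2 fold change was 2.41 ± 0.56 (adjusted p = 0.00565, edgeR), and 1.71 without SoLo 1 (adjusted p = 0.00905, edgeR).

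The calls of linc-22 and linc-9 towards SoLo were each lost on leaving out any of several single libraries. linc-22, at 4071 exonic bases the longest tested linc gene, has 5 exons on the plus strand of chromosome X from 9069138 to 9073735. Other genes cover 4.37% of its exon bases, with 3.86% under the snoRNA gene F47E1.19 on the same strand. The part of that gene in the linc-22 reads was not tested. linc-22 had 57.4, 47.4, 40.6 and 44.0 CPM in SoLo 1 to 4, against 40.7, 22.9, 15.2 and 23.2 CPM in SMARTseq 1 to 4. SoLo was higher in all 4 RNA samples, but SMARTseq 1 reached the SoLo range. The log2 fold change was 0.89 ± 0.29 (adjusted p = 0.0310, edgeR). The adjusted p was 0.0754 without SMARTseq 2, 0.0744 without SMARTseq 3, 0.0766 without SMARTseq 4, 0.0618 without SoLo 1 and 0.0573 without SoLo 2. linc-9, with 4 exons on the plus strand of chromosome I from 3703542 to 3704956, had 3.88, 9.27, 2.90 and 8.73 CPM in SoLo 1 to 4, against 0.685, 3.07, 1.94 and 2.42 CPM in SMARTseq 1 to 4. The ranges overlapped slightly, and the log2 fold change was 1.60 ± 0.57 (adjusted p = 0.0407, edgeR). The adjusted p was 0.0670 without SMARTseq 1, 0.0870 without SMARTseq 3, 0.0678 without SMARTseq 4, 0.119 without SoLo 2 and 0.113 without SoLo 4.

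The 10 largest called differences towards SMARTseq, linc-7 among them, had log2 fold changes of -4.18 to -2.55. Of the 10, linc-7, linc-45 and linc-91 were over the filter cutoff in all 8 libraries, while linc-167, linc-104, linc-105, linc-35, linc-38, linc-66 and linc-58 passed through the SMARTseq libraries alone, the kit where they were higher. Of the SoLo libraries, 3 were over the cutoff for linc-35, 1 each for linc-104 and linc-66, and none for the others that passed this way. linc-167, with 2 exons and 2969 exonic bases on the plus strand of chromosome I from 3122011 to 3127661, had 2, 1, 1 and 0 reads in SoLo 1 to 4, against 65, 20, 21 and 14 reads in SMARTseq 1 to 4. That was 0.288 ± 0.231 CPM in SoLo and 5.83 ± 3.56 CPM in SMARTseq (SD, n = 4 each), with a log2 fold change of -4.18 ± 0.70 (adjusted p = 0.000923, edgeR). No SoLo library came near a SMARTseq library, and the SoLo level rests on 4 reads in all. linc-35, a single exon of 189 bases on the minus strand of chromosome II from 6927637 to 6927825, had 1.94, 3.57, 3.14 and 5.24 CPM in SoLo 1 to 4, against 18.8, 37.6, 34.8 and 38.0 CPM in SMARTseq 1 to 4. RNA sample 1 was lowest in both kits, the groups did not overlap, and the log2 fold change was -3.22 ± 0.37 (adjusted p = 8.69e-05, edgeR). linc-45, with 3 exons on the plus strand of chromosome III from 3151809 to 3152607, had 3.05, 4.28, 2.90 and 2.80 CPM in SoLo 1 to 4, against 20.0, 30.7, 17.1 and 23.2 CPM in SMARTseq 1 to 4. RNA sample 2 was highest in both kits, and the log2 fold change was -2.80 ± 0.30 (adjusted p = 5.57e-05, edgeR).

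linc-91, a single exon of 3257 bases on the plus strand of chromosome I from 4699610 to 4702866, averaged 3.18 ± 1.42 CPM in SoLo and 19.2 ± 1.95 CPM in SMARTseq (SD, n = 4 each), with a log2 fold change of -2.58 ± 0.34 (adjusted p = 0.000198, edgeR). linc-58, a single exon of 241 bases on the plus strand of chromosome I from 7952885 to 7953125, averaged 1.25 ± 0.752 CPM in SoLo and 7.28 ± 1.63 CPM in SMARTseq, with a log2 fold change of -2.55 ± 0.51 (adjusted p = 0.00257, edgeR). Single-exon genes of very different length were thus among the 10. linc-38, with 2 exons on the minus strand of chromosome V from 10276942 to 10277353, averaged 0.711 ± 0.698 CPM in SoLo and 6.51 ± 2.27 CPM in SMARTseq, with a log2 fold change of -3.11 ± 0.66 (adjusted p = 0.00369, edgeR) and of -3.89 without SoLo 1. linc-105, with 2 exons on the plus strand of chromosome III from 10718341 to 10719485, had 0, 1.43, 0.242 and 0 CPM in SoLo 1 to 4, against 5.31, 4.96, 4.06 and 4.85 CPM in SMARTseq 1 to 4. SoLo was at 0 in 2 of 4 libraries, SMARTseq was even across libraries, and the log2 fold change was -3.54 ± 0.80 (adjusted p = 0.00517, edgeR). Without SoLo 2, 1 SoLo read was left, a SoLo over SMARTseq ratio of 0.0197 with an exact 95% counting interval of 0.000494 to 0.113.

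linc-104 and linc-66 were high in RNA sample 1. linc-104, with 2 exons and 287 exonic bases on the minus strand of chromosome I from 4467346 to 4467684, lies inside the span of eri-6 on the opposite strand. It had 3.60, 0, 1.21 and 1.75 CPM in SoLo 1 to 4, against 65.5, 11.8, 13.6 and 13.7 CPM in SMARTseq 1 to 4. All SoLo libraries were below all SMARTseq libraries, and the log2 fold change of -3.94 ± 0.86 (adjusted p = 0.00427, edgeR) was -2.96 without SMARTseq 1 and -4.63 without SoLo 1. linc-66, with 2 exons on the minus strand of chromosome II from 2615725 to 2616219, had 4.16, 0.713, 0 and 1.40 CPM in SoLo 1 to 4, against 16.1, 5.20, 4.95 and 13.7 CPM in SMARTseq 1 to 4. SoLo 1 came close to the 2 lowest SMARTseq libraries without reaching them. The log2 fold change was -2.64 ± 0.86 (adjusted p = 0.0291, edgeR), -3.85 without SoLo 1 and -3.58 without both libraries of RNA sample 1. The edgeR adjusted p of linc-66 was 0.0605 without SMARTseq 4, 0.0904 without SoLo 2 and 0.0833 without SoLo 4.

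The other 9 genes lower in SoLo, beside linc-11, linc-8, linc-25, linc-10 and linc-153, were linc-6, linc-14, linc-19, linc-24, linc-40, linc-42, linc-82, linc-124 and linc-126, with log2 fold changes of -2.47 to -1.26. Among them linc-6, linc-19, linc-82, linc-124 and linc-126 passed the filter through the SMARTseq libraries alone, the kit where they were higher. Of the SoLo libraries, 3 were over the cutoff for linc-6 and for linc-124, 1 for linc-126, and none for linc-19 and linc-82. Of the 9, linc-6 lost its call without SoLo 2 or SoLo 3, with an edgeR adjusted p of up to 0.0591. linc-82 fell out of the tested set without SMARTseq 1, 3 or 4. linc-40 lost its call without SMARTseq 2, SMARTseq 3, SoLo 1, SoLo 2 or SoLo 3, with an adjusted p of up to 0.105. linc-124 lost its call without SMARTseq 1, SMARTseq 2, SoLo 2, SoLo 3 or SoLo 4, with an adjusted p of up to 0.109.

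linc-153, on the minus strand of chromosome V from 11641024 to 11643916 with 13.3% of its exon bases under other genes, was at the edge of the threshold. This gene passed the filter through the SMARTseq libraries alone, the kit where it was higher, and 3 SoLo libraries were also over the cutoff. It had 2.22, 2.14, 2.90 and 0.699 CPM in SoLo 1 to 4, against 7.53, 5.44, 3.36 and 4.04 CPM in SMARTseq 1 to 4. The groups did not overlap, yet the log2 fold change of -1.32 ± 0.48 passed narrowly (adjusted p = 0.0449, edgeR) and did not pass with the RNA sample as a block (adjusted p = 0.0543, edgeR). Leaving out SMARTseq 1, SMARTseq 2 or any 1 SoLo library took its adjusted p to between 0.0682 and 0.126, and leaving out both libraries of RNA sample 1 to 0.118.

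Among the 14 linc genes that passed in neither direction, linc-149 had the smallest log2 fold change. It is a single exon of 1499 bases on the plus strand of chromosome I from 7333035 to 7334533, and it had 19.1, 23.5, 26.6 and 20.3 CPM in SoLo 1 to 4, against 20.5, 20.6, 18.9 and 20.2 CPM in SMARTseq 1 to 4. The groups overlapped, and the log2 fold change was 0.16 ± 0.20 (adjusted p = 0.544, edgeR), but 0.70 with library totals as the only scaling (adjusted p = 0.0132, edgeR). linc-109, linc-15 and linc-152 had log2 fold changes of -0.21 ± 0.45, 0.45 ± 0.50 and 0.52 ± 0.49 (adjusted p = 0.730, 0.491 and 0.407, edgeR), with kit means of 2.90 to 8.96 CPM. linc-152 had 11.9, 8.92, 6.28 and 8.73 CPM in SoLo 1 to 4, against 3.08, 4.25, 13.1 and 4.31 CPM in SMARTseq 1 to 4. SMARTseq 3 alone was above the SoLo range, and without it the log2 fold change was 1.19 (adjusted p = 0.0294, edgeR). The other 9, linc-2, linc-30, linc-44, linc-73, linc-81, linc-113, linc-133, linc-143 and linc-165, had log2 fold changes of -0.99 to 0.82 and a smallest adjusted p of 0.0606. Among them linc-81 averaged 13.2 ± 0.512 CPM in SoLo and 8.12 ± 3.27 CPM in SMARTseq (SD, n = 4 each), and every SoLo library was above every SMARTseq library. Its log2 fold change of 0.70 ± 0.31 (adjusted p = 0.0961, edgeR) passed without SMARTseq 1 (adjusted p = 0.0114, edgeR) and without both libraries of RNA sample 1 (adjusted p = 0.0149, edgeR), and linc-30 also passed without SMARTseq 1 (adjusted p = 0.0290, edgeR). linc-113, at -0.99 ± 0.45, was -1.37 without both libraries of RNA sample 1 and then passed (adjusted p = 0.0479, edgeR). A p over the threshold does not show equal levels at this depth.

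Some linc genes had reads in a single kit. linc-48 had no reads in SoLo, against 7, 3, 5 and 3 reads in SMARTseq 1 to 4, a level at least 4.14-fold higher in SMARTseq with a floor of 3 reads over the 4 SoLo libraries. linc-34 had no reads in SoLo, against 18, 2, 3 and 2 reads in SMARTseq 1 to 4, which puts SMARTseq at least 5.75-fold higher, and at least 2.30-fold higher without SMARTseq 1. linc-156 had no reads in SoLo, against 0, 4, 11 and 9 reads in SMARTseq 1 to 4, which puts SMARTseq at least 5.52-fold higher. These sums rest on few reads, and intervals and floors cover counting error only. linc-158 and linc-43 also had no reads in SoLo, and all 21 reads of linc-158 came from SMARTseq 1, as did 11 of the 14 reads of linc-43. linc-57 had no reads in SoLo, against 10 in SMARTseq, at least 2.30-fold higher in SMARTseq and at least 1.30-fold without SMARTseq 3. In the other direction, linc-159 had 1, 4, 5 and 6 reads in SoLo 1 to 4 and none in SMARTseq, at least 7.73-fold higher in SoLo with a floor of 3 reads over the 4 SMARTseq libraries. linc-169 had 3 reads in each SoLo library and none in SMARTseq, at least 5.80-fold higher in SoLo, but 70.3% of its exon bases lie under a pseudogene on the same strand.

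The 3 untested linc genes with most reads were linc-46, linc-85 and linc-147. linc-46 had 8, 1, 0 and 1 reads in SoLo 1 to 4, against 83, 9, 13 and 6 reads in SMARTseq 1 to 4. linc-85 had 3, 0, 3 and 0 reads in SoLo 1 to 4, against 70, 12, 14 and 9 reads in SMARTseq 1 to 4. linc-147 had 4, 2, 2 and 0 reads in SoLo 1 to 4, against 57, 8, 19 and 8 reads in SMARTseq 1 to 4. In SMARTseq all 3 had far more reads from RNA sample 1 than from the other RNA samples, while SoLo gave at most 8 reads in a library.

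RNA sample 1 had the highest CPM of the 4 RNA samples in both kits for 15 of the 42 tested linc genes, 35.7%, where 24.4% of all tested genes did. It had the lowest CPM in both kits for 5 of the 42, where 24.3% of all tested genes did. The ratio of RNA sample 1 to the mean of RNA samples 2 to 4 was 3.66 in SoLo and 5.02 in SMARTseq for linc-104. For linc-56 it was 3.67 in SoLo and 2.13 in SMARTseq, and for linc-136 2.09 in SoLo and 2.63 in SMARTseq. In the other direction stood linc-35, at 0.487 in SoLo and 0.512 in SMARTseq, and linc-40, at 0.256 in SoLo and 0.320 in SMARTseq. Seen across the 42 linc genes, which share these libraries, the log2 ratio in SoLo ranked with that in SMARTseq at a Spearman rho of 0.70, and across all tested genes at 0.67. Both libraries of RNA sample 1 come from the same RNA. The pan-neuronal, intestine, coelomocyte, muscle, germline, and hypodermis and cuticle sums moved with RNA sample 1 as given above. Their part in these ratios was not tested.

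**Figure D5:**
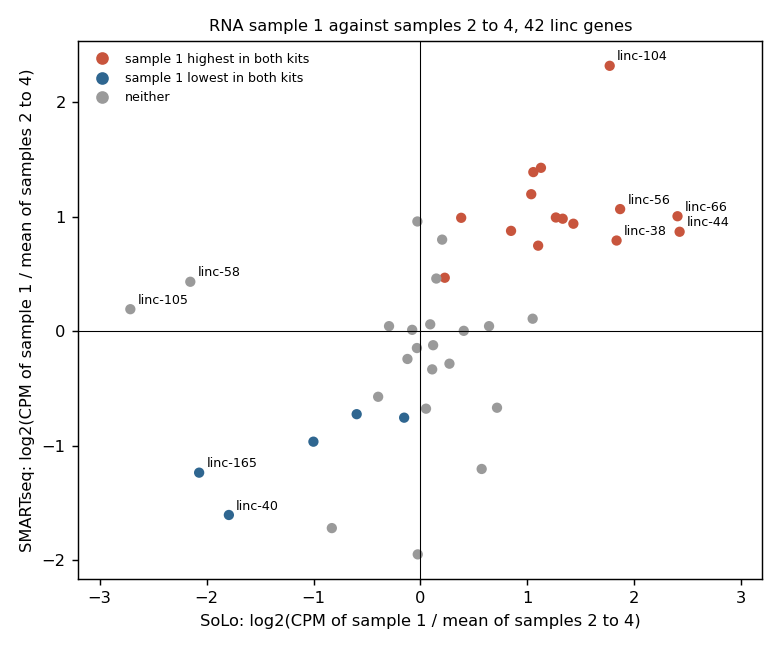
Log2 ratio of RNA sample 1 to the mean of RNA samples 2 to 4 for each of the 42 tested linc genes, SoLo on one axis and SMARTseq on the other, with a pseudocount of 0.1 CPM. Most points lie high in both or low in both kits, with a Spearman rho of 0.70, linc-104 high in both and linc-40 low in both.

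Gene structure was set beside the kit difference as a description. The log2 fold change had a Spearman rho of 0.30 with exonic length over the 42 tested linc genes, and of 0.24 over the 11006 tested genes with a length. It was -0.10 with exon number, 0.08 with mean CPM and 0.14 with the share of exon bases under other genes. The 25 linc genes under 1000 exonic bases comprised 2 higher and 18 lower in SoLo, with a median of -1.65, and the 17 of at least 1000 bases comprised 2 higher and 6 lower, with a median of -0.91. Over all tested genes under 1000 bases, 16.3% were higher and 36.0% lower in SoLo, with a median of -0.35, and over those of at least 1000 bases 21.3% were higher and 24.2% lower, with a median of 0.12. Single-exon linc genes comprised 2 higher and 6 lower of 14, with a median of -0.88. Of the 18 with 2 exons 11 were lower and 7 passed in neither direction, with a median of -1.37, and of the 10 with 3 or more exons 2 were higher and 7 lower, with a median of -1.77. Over all tested genes, whatever their exon number, 20.0% were higher and 27.6% lower in SoLo. Shares of all tested genes by exon number are not given here, and whether these classes are particular to the linc genes was not tested.

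The remaining 12 genes of the biotype lincRNA, which carry sequence-based names, were a larger share in SoLo, a direction that rested on H36L18.2. They took 0.105% ± 0.0270 of counts in SoLo and 0.0809% ± 0.0126 in SMARTseq (SD, n = 4 each), a ratio of 1.30, against 0.608 for the linc genes. The ranges of the kits overlapped. Without H36L18.2 they took 0.0266% ± 0.00869 in SoLo and 0.0490% ± 0.00505 in SMARTseq, which gave a ratio of 0.543, and the ranges did not overlap. Of the 12, 6 were tested by edgeR, of which 3 were lower in SoLo and 3 passed in neither direction, with adjusted p of 0.0831 to 0.260, and the median log2 fold change of the 6 was -0.36. H36L18.2 averaged 655 ± 297 CPM in SoLo and 389 ± 176 CPM in SMARTseq, with a log2 fold change of 0.75 ± 0.49 (adjusted p = 0.236, edgeR). Y41C4A.17 averaged 191 ± 58.2 CPM in SoLo and 536 ± 59.1 CPM in SMARTseq, with a log2 fold change of -1.49 ± 0.21 (adjusted p = 0.000329, edgeR). Of 57 anr genes with tts-1 and rncs-1, other long non-coding RNAs, 6 were tested, of which anr-35 was higher in SoLo (2.93 ± 0.77; adjusted p = 0.0113, edgeR) and anr-36 and anr-54 were lower, with log2 fold changes of -3.10 ± 0.31 and -2.70 ± 0.64.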

How the data were processed

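For 8 RNA-seq libraries the table deposited by the authors holds unnormalised whole-number counts per gene. The submitters' processing notes name STAR, SAMtools, featureCounts and build WBcel235, with no settings, and how strand and reads with several hits were treated is not given in the sources used here. The members and gene lists were chosen with earlier results of these data known. Gene structures came from the Ensembl annotation of the same build. Genes with 2.51 CPM, 10 reads in a library of median depth, in at least 4 libraries were fitted with edgeR 4.0.16 in R 4.3.3 (TMM scaling, kit as the only term, quasi-likelihood test, all 8 libraries), and p-values were adjusted over all 11378 genes by Benjamini-Hochberg. A call is an adjusted p under 0.05, fold changes are SoLo over SMARTseq, and CPM uses TMM library sizes. The 2.51 CPM filter cutoff is the exception and uses library totals before TMM scaling. Library totals ran from 2354681 to 7099497 reads. Intervals and floors cover counting error only.

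Replicate numbers mark the RNA sample that was divided between the kits, per the series' design text, and the deviations of same-numbered libraries correlated at 0.741, 0.342, 0.333 and 0.298. Pairing rests on the design text, since SoLo 4 with SMARTseq 3 (0.317) and SoLo 3 with SMARTseq 4 (0.312) correlated as highly as some matched pairs. The fit was tested on simulated data with known changes. It called 6 of 93 genes (6.45%) with a 2-fold change and 65 of 96 (67.7%) with a 4-fold change. Of 10754 unchanged genes it called 2. Most 2-fold changes would thus be missed at these settings. Genes named were the 8 with most CPM, all called higher in SoLo, the 10 largest calls towards SMARTseq, the 4 smallest uncalled differences, those with at least 10 reads in 1 kit and 0 in the other, those whose call changed with the replicate block, and the 3 untested with most reads. Other genes named by library dependence, RNA sample 1 ratios or detection, and the split at 1000 bases, were chosen after their values were seen. Alternatives were DESeq2 1.42.0, the replicate block, RNA samples 2 to 4 summed, library totals as scaling, other filters, only genes without exon overlap, other detection limits, and each library left out. Leaving out both libraries of RNA sample 1, linc-7, or H36L18.2 from the other lincRNA genes, was chosen after seeing the data. The nearest protein-coding gene had a fold change for 28 of 42 tested linc genes, under 80%, and was not used. Marker sums of germline, muscle, glia and coelomocytes were 186 to 287, 5768 to 7328, 6.78 to 13.9 and 2.14 to 5.82 CPM in SoLo, against 175 to 345, 4033 to 5542, 6.62 to 20.5 and 4.02 to 36.6 CPM in SMARTseq.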

Additional observations from a re-analysis of the deposited data

Results flagged for a closer look

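Of 78 groups of 4 libraries examined, 14 held a library far from the other 3 by Dixon's test, 11 of them library 1. The cutoff gives such a result in about 1 of 20 groups of independent, normally distributed values. Several flagged groups hold few reads and values at 0, and all groups share the same 8 libraries. The 14 therefore cannot be set against that rate, and the flags are a description. In SoLo 1 the level was 92.0 CPM for linc-128, against 31.7 to 39.1 CPM in SoLo 2 to 4, 55.2 CPM for linc-56, against 14.0 to 16.4 CPM, and 2.22 CPM for linc-46, against 0 to 0.357 CPM. In SMARTseq 1 the level was 65.5 CPM for linc-104, against 11.8 to 13.7 CPM in SMARTseq 2 to 4, 14.2 CPM for linc-46, against 1.62 to 2.30 CPM, and 12 CPM for linc-85, against 2.42 to 2.84 CPM. SMARTseq 1 was also high for linc-167 at 11.1 CPM, against 3.71 to 4.73 CPM in SMARTseq 2 to 4, for linc-158 at 3.59 CPM, against 0, and for linc-34 at 3.08 CPM, against 0.473 to 0.539 CPM. It was low for linc-35, at 18.8 CPM against 34.8 to 38.0 CPM. The share of counts of the linc genes without linc-7 was 0.0790% in SMARTseq 1, against 0.0565% to 0.0600% in SMARTseq 2 to 4.

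Outside RNA sample 1, SoLo 2 was high for linc-105, at 1.43 CPM against 0 to 0.242 CPM in the other SoLo libraries, and for linc-45, at 4.28 CPM against 2.80 to 3.05 CPM. SMARTseq 3 was high for linc-152, at 13.1 CPM against 3.08 to 4.31 CPM in the other SMARTseq libraries.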

How the results depend on the processing

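The count of linc genes higher in SoLo, 4 as reported, was 7 of 97 with DESeq2, where 16.7% of all genes were higher. Without a filter on low counts it was 5 of 137, where 9.80% were. Library totals as the only scaling gave 7 of 42, where 38.0% of all genes were higher. Requiring 50 reads in 4 libraries gave 2 of 14, where 25.0% were. Leaving out genes with exon overlap gave 2 of 28. When RNA samples 2 to 4 were added up and not blocked it was 0 of 64, where 3.39% of all genes were higher. In that fit 2 linc genes had an unadjusted p under 0.05 in edgeR. The count higher in SoLo ranged from 2 to 5 of 42 to 48 tested with 1 library left out, where 15.7% to 23.7% of all genes were higher. The count lower in SoLo, 24 as reported, was 28 of 97 with DESeq2, where 19.2% of all genes were lower. Without a filter on low counts it was 29 of 137, where 11.9% of all genes were lower. At 50 reads it was 10 of 14, where 32.5% of all genes were lower, and without overlapped genes it was 14 of 28. Summed samples and no block gave 3 of 64, where 5.89% of all genes were lower. In that fit 23 linc genes had an unadjusted p under 0.05 in edgeR. The count lower in SoLo ranged from 21 to 26 with 1 library left out, where 23.2% to 29.7% of all genes were lower. With the replicate block the counts were 4 and 24, where 28.9% of all genes were higher and 32.2% lower, linc-136 was gained and linc-153 lost, and no other linc call changed. The gain of linc-136 did not hold with the block on summed samples (adjusted p = 0.131, edgeR). No called linc gene changed direction in any setting run. The median log2 fold change, -1.29 as reported, was -1.12 with samples summed and no block, -1.11 summed with the replicate block, -1.59 with at least 50 reads, -1.43 without RNA sample 1, -1.16 with no filter and -0.75 with library totals, which moved the median of all genes to 0.56. With 1 library left out it ranged from -1.49 without SoLo 1 to -1.17 without SMARTseq 1. The SoLo over SMARTseq ratio of the linc share, 0.608, was 0.417 with TMM library sizes as denominator, 0.650 without ribosomal RNA and 0.842 without linc-7, and ranged from 0.542 to 0.646 with 1 library left out. The difference in detected genes, -8.5, was -5.75 at 1 read, -7.25 at 10 reads and -26.25 without thinning, and ranged from -11.1 without SoLo 1 to -6.08 without SMARTseq 1. Among the genes named by the criteria listed above, only linc-109, -0.21 and not called, changed sign. It moved to 0.024 with samples summed and no block, 0.019 summed with the block, 0.33 with library totals and 0.052 without SoLo 2. With 1 library left out it ran from -0.45 to 0.052. Over all settings 323 of 373 values for the genes named by these criteria kept direction and call. Apart from the summed fit without a block, and from genes left untested at 50 reads, the calls lost in this set were those of linc-153, linc-22, linc-66 and linc-9. Outside this set linc-6, linc-40 and linc-124 also lost their calls in several settings, and linc-24 did with library totals. The cause of these changes was not tested, and the stricter settings also held fewer genes or samples. Depth limits the class: a tested linc gene had a median of 11.75 reads per SoLo library and 33.75 per SMARTseq library.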
